A study of Mus musculus with 4 samples.

Results

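The 10 genes described here are expressed by the endothelium, the cell layer that lines blood vessels. They were taken as a named list, Kdr, Flt1, Tek, Tie1, Robo4, Emcn, Pecam1, Cdh5, Aplnr and Ramp2, and every probe set assigned to a single one of them was read. All 10 were on the array, in 16 single-gene probe sets, among 17097 genes with 28898 such probe sets. The tissue was whole inguinal mammary gland taken at postnatal day 10, with 2 arrays from Mt1-mmp(-/-) mice, a global knockout, and 2 from Mt1-mmp(+/+) littermates. Both genotypes were on an outbred Swiss Black background, and each array is labelled a biological replicate. The knockout lacks the gene listed on the array as Mmp14, a membrane-anchored protease that cleaves collagen. The gland was homogenised whole, so its epithelium, fat, vessels and any attached tissue all gave RNA, and fewer endothelial cells cannot be told apart from less RNA per endothelial cell.

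Blood vessels grow when vascular endothelial growth factor (VEGF) binds the receptors encoded by Kdr and Flt1 on endothelial cells, and mature when angiopoietins act on Tek, which works together with Tie1. Cdh5 and Pecam1 encode adhesion molecules that hold neighbouring endothelial cells together, and Emcn and Robo4 encode surface proteins of the vessel wall. Aplnr and Ramp2 belong to the signalling by the peptides apelin and adrenomedullin. In the mammary gland the capillary bed runs through the fat pad and around the epithelial ducts. Several of these genes are not exclusive to blood vessels, since Pecam1 is also made by platelets and leukocytes and Kdr, Tie1, Cdh5 and Pecam1 by lymphatic endothelium.

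Values are log2 expression values, so a difference of 1 is a 2-fold change, and the test was limma on 11078 genes with Benjamini-Hochberg adjusted p-values at a threshold of 0.05. Mmp14 had 5.83 and 5.68 in the knockout arrays, against 8.92 and 8.73 in the wild-type arrays, in its brighter probe set. Its dimmer probe set gave 4.32 and 4.31 in the knockout arrays, against 6.11 and 5.87 in the wild-type arrays. The knockout arrays lay below the wild-type arrays in both, which checks the labels as far as loss of the transcript goes, since the sources used here do not give which part of the gene was removed. The median gap between the knockout arrays over the genes tested was 0.21, and that between the wild-type arrays 0.08. Knockout replicates 1 and 2 also stood apart in 2 lists of markers, whose medians relative to wild type were -1.27 and 5.93 for skeletal muscle and 3.15 and -0.97 for epidermis with hair follicle.

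In the knockout, 8 of the 10 endothelial genes had a lower mean than in wild type, where 53.4% of all genes tested did, and 2 a higher one. No difference passed the threshold. The 2 knockout arrays gave different pictures of the endothelium. Knockout replicate 1 lay below both wild-type arrays for 9 of 10 genes, all but Ramp2, where 43.7% of all genes tested did so. Knockout replicate 2 lay below both for 4 genes, Kdr, Robo4, Emcn and Cdh5, where 50.8% of all genes did so. It lay above both for Flt1, Tek, Pecam1 and Ramp2 and between them for Tie1 and Aplnr. Thus both knockout arrays were below both wild-type arrays for 4 of 10 genes, against 32.5% of all genes tested, and above both for 1, Ramp2, against 26.3%. The share of members without overlap was therefore near the background. These counts take the brightest probe set, and the direction of Ramp2 depended on the probe set. In the middle one of its sets by brightness, knockout replicate 1 was the lowest array and the mean difference was -0.11. The median difference over the 10 genes was -0.18, against -0.02 over all genes tested. All 10 were at or above the 75th percentile of brightness, and over all genes that bright the median was -0.07. By array, the members' median was -0.43 in knockout replicate 1 and 0.02 in knockout replicate 2, set against the wild-type mean.

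**Figure D1:**
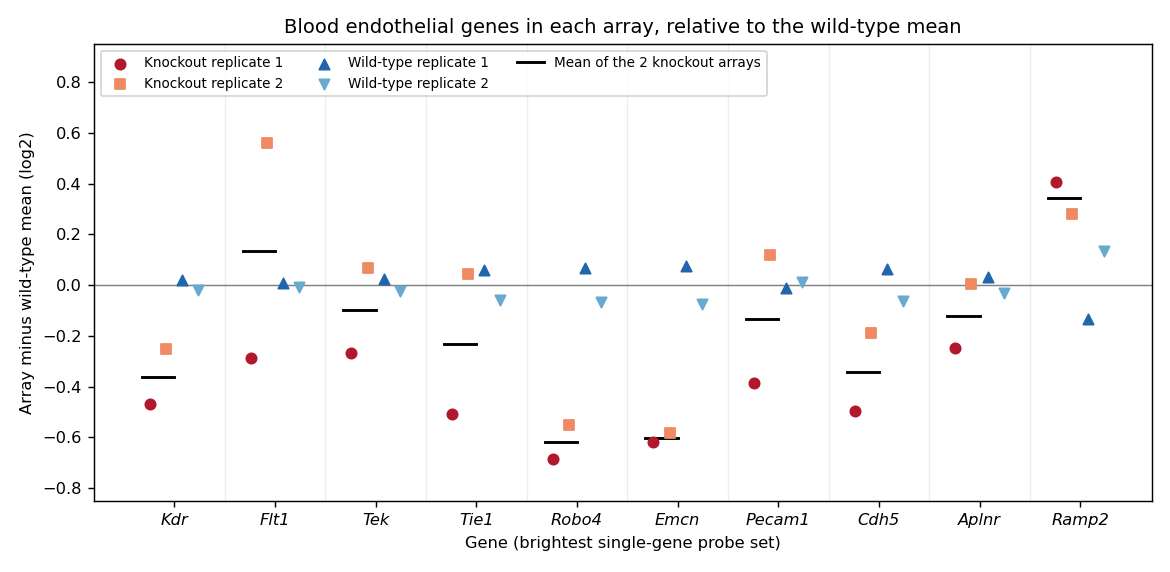
Each point is 1 array's log2 value minus the mean of the 2 wild-type arrays for the brightest probe set of a gene, with knockout arrays left of wild-type arrays, and short lines mark the mean of the 2 knockout arrays. Knockout replicate 1 lies below both wild-type arrays for 9 of 10 genes and knockout replicate 2 for 4, and both knockout arrays of Robo4 and Emcn lie more than 0.5 below the wild-type mean.

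Limma with Benjamini-Hochberg adjustment called 0 of 11078 genes (0%), with a smallest adjusted p of 0.0738. Mmp14, the gene the knockout lacks, had this adjusted p and so was not called either. At an unadjusted limma p under 0.05, 3 of the 10 endothelial genes were lower (Kdr, Robo4 and Emcn) and 0 higher. Of all genes, 12.1% were lower and 9.69% higher at that level. Limma fitted over 22536 probe sets in place of genes called 1 (0.00444%), which has no gene name in the annotation, and no probe set of an endothelial gene. With 2 arrays against 2, an exact permutation test of a single gene cannot give a two-sided p below 0.333.

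Robo4 encodes an endothelial guidance receptor that is known to steady vessels. It had 7.83 and 7.96 in the knockout arrays, against 8.58 and 8.45 in the wild-type arrays. The knockout arrays were both low, and the groups did not overlap. The difference was -0.62 ± 0.11 (SE, n = 2 per group), or 1.53-fold lower, with a limma adjusted p of 0.124. Emcn encodes endomucin, a sialomucin on the surface of capillary and venous endothelium. Its values were 8.65 and 8.68 in the knockout arrays, against 9.34 and 9.19 in the wild-type arrays. The knockout arrays were nearly equal here, differing by 0.03, whereas the wild-type arrays differed by 0.15. The difference was -0.60 ± 0.10 (SE, n = 2 per group), 1.52-fold lower, with a limma adjusted p of 0.123. Of all genes tested, 6.83% had a lower difference than Robo4 and 7.16% a lower one than Emcn. With knockout replicate 1 left out, Robo4 differed by -0.55 and Emcn by -0.58, and with replicate 2 left out by -0.68 and -0.62. Both genes passed limma's threshold in either fit, but they were not the only members to do so. Flt1 passed as a higher gene without replicate 1, at a difference of 0.56. Kdr passed as a lower gene without replicate 2, at -0.47. Those fits take the spread of the wild-type pair to hold for a single knockout array too, and they called 24.6% and 4.99% of all genes lower. Both fits also called genes higher. Without either wild-type array no endothelial gene passed limma's threshold.

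Robo4 and Emcn were the members that differed most, with like values in both knockout arrays, so their promoters are shown together with those of Tie1 and Flt1, whose knockout arrays lay apart. The sequences run 5′ to 3′ from 250 bases before to 50 bases after a start taken from RefSeq (build GRCm38.p6). For Robo4, Emcn and Flt1 that start lies inside the annotated gene span, and the whole Flt1 window does. Capitals mark AGGAAG or its reverse complement CTTCCT, a sequence recognised by ETS factors such as Erg and Fli1, which are regulators of endothelial genes. These letters are called the ETS core below, and other sequences that ETS factors recognise were not counted. The Robo4 window is chr9:37401722-37402021, plus strand, that of Emcn chr3:137340828-137341127, plus strand, that of Tie1 chr4:118489800-118490099, minus strand, and that of Flt1 chr5:147725962-147726261, minus strand.
Robo4: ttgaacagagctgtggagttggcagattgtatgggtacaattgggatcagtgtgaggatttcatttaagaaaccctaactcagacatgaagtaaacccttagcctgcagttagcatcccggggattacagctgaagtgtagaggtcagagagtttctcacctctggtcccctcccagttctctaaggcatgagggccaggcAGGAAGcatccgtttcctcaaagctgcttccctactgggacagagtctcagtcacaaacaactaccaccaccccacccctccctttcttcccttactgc
Emcn: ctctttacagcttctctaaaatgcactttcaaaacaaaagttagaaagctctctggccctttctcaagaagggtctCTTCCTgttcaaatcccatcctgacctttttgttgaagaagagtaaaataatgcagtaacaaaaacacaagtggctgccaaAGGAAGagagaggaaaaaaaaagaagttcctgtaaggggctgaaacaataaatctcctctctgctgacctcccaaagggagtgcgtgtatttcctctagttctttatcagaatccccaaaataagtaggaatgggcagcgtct
Tie1: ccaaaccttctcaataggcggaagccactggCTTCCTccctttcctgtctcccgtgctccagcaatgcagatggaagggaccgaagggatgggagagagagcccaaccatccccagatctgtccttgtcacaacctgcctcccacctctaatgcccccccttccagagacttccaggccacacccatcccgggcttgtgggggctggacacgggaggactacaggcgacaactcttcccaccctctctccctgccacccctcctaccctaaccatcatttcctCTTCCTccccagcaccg
Flt1: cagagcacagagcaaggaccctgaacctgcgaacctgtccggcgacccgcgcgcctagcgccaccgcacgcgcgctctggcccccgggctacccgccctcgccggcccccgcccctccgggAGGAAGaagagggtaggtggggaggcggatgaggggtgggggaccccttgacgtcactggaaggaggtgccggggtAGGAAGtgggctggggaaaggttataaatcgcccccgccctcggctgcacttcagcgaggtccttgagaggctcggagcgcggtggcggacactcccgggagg
The ETS core was found once in the Robo4 window and 2 times in each of the windows of Emcn, Tie1 and Flt1. RefSeq promoter sequences matched 6 of the 10 genes, and 4 of these 6 held the core on either strand, against 35.4% of 32851 promoter windows of the same length. The windows of Kdr and Tek did not hold these letters. A SOX core, ACAAT or ATTGT, was in 3 of the 6 windows, against 31.0% of all windows. A GATA core, AGATAA or TTATCT, was in 1 of 6, against 11.2%. No core contains another, and a match describes letters, not a bound site. The core was present both in genes that were low in both knockout arrays and in genes whose knockout arrays lay apart.

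Kdr encodes VEGF receptor 2, the main signalling receptor for VEGF in endothelial cells. It had 9.62 and 9.84 in the knockout arrays, against 10.11 and 10.07 in the wild-type arrays. Both knockout arrays were low, with replicate 1 lower than replicate 2. The difference was -0.36 ± 0.12 (SE, n = 2 per group), a 1.28-fold lower level, with a limma adjusted p of 0.21. It was -0.25 without knockout replicate 1 and -0.47 without knockout replicate 2.

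Flt1 encodes VEGF receptor 1, which binds VEGF tightly, signals weakly and in its soluble form keeps VEGF from Kdr. Its brightest probe set gave 7.29 and 8.13 in the knockout arrays, against 7.58 and 7.57 in the wild-type arrays. The wild-type arrays were almost equal and the knockout arrays fell on opposite sides of them, 0.85 apart. This was the largest gap between knockout arrays among the 10 genes. The mean difference of 0.13 ± 0.31 (SE, n = 2 per group, limma adjusted p = 0.822) therefore describes neither knockout array. A second probe set of Flt1 had the same order, with 7.45 and 7.90 in the knockout arrays, against 7.60 and 7.58 in the wild-type arrays. The third gave 4.30 and 4.56 in the knockout arrays, against 4.48 and 4.27 in the wild-type arrays. It lay below the brightness limit of 4.94, the median over all probe sets, and its groups overlapped. Without knockout replicate 1 Flt1 differed by 0.56, and without knockout replicate 2 it differed by -0.29.

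Tek encodes the receptor for angiopoietins, also known as Tie2. It gave 8.69 and 9.02 in the knockout arrays, against 8.98 and 8.93 in the wild-type arrays. Replicate 1 of the knockout was the lowest array and replicate 2 the highest, so the groups overlapped (-0.10 ± 0.15, SE, n = 2 per group, limma adjusted p = 0.722). Tie1, the partner receptor that modulates Tek, had 7.18 and 7.74 in the knockout arrays, against 7.75 and 7.63 in the wild-type arrays. Knockout replicate 1 was again alone at the low end, while replicate 2 lay within the wild-type range. The difference of -0.23 ± 0.22 (SE, n = 2 per group) had a limma adjusted p of 0.565.

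Cdh5 encodes VE-cadherin, the cadherin of endothelial adherens junctions. Its brighter probe set had 9.64 and 9.95 in the knockout arrays, against 10.20 and 10.07 in the wild-type arrays. Both knockout arrays were below both wild-type arrays, with a difference of -0.34 ± 0.15 (SE, n = 2 per group, 1.27-fold lower, limma adjusted p = 0.283). Its other probe set, below the brightness limit, had 4.38 and 4.33 in the knockout arrays, against 4.63 and 4.52 in the wild-type arrays, and did not overlap either. Pecam1 encodes CD31, a molecule of cell-to-cell contacts in endothelium. It had 8.02 and 8.53 in the knockout arrays, against 8.40 and 8.42 in the wild-type arrays. The knockout arrays lay on either side of the wild-type pair (-0.13 ± 0.20, SE, n = 2 per group, limma adjusted p = 0.723). Thus the junction genes were alike in knockout replicate 1, at -0.50 for Cdh5 and -0.38 for Pecam1, and had opposite signs in knockout replicate 2, at -0.19 and 0.12.

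Aplnr encodes the apelin receptor. It had 11.68 and 11.93 in the knockout arrays, against 11.95 and 11.89 in the wild-type arrays, in its brighter probe set. The other probe set had 7.61 and 7.999 in the knockout arrays, against 8.06 and 7.94 in the wild-type arrays. In both, knockout replicate 1 was the lowest array and knockout replicate 2 lay within the wild-type range. The brighter set differed by -0.12 ± 0.13 (SE, n = 2 per group, limma adjusted p = 0.609).

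Ramp2 encodes a membrane protein that turns the receptor encoded by Calcrl into a receptor for adrenomedullin. Its probe sets disagreed. The brightest had 10.41 and 10.29 in the knockout arrays, against 9.87 and 10.14 in the wild-type arrays, a difference of 0.34 ± 0.14 (SE, n = 2 per group, 1.27-fold higher, limma adjusted p = 0.262). Both knockout arrays were high without overlap, although the wild-type arrays lay 0.27 apart. The dimmest had the same order, with 8.51 and 8.32 in the knockout arrays, against 8.01 and 8.18 in the wild-type arrays. The middle one had 9.43 and 9.95 in the knockout arrays, against 9.86 and 9.73 in the wild-type arrays, and differed by -0.11. There knockout replicate 1 was lowest and replicate 2 highest, the order seen in Flt1, Tek and Pecam1. The brightest set is of a type that can match several transcripts, and without such sets the Ramp2 difference was -0.11. A further 4 probe sets are annotated to both Malat1 and Ramp2 and were not used. The direction of Ramp2 thus depended on the probe set.

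**Figure D2:**
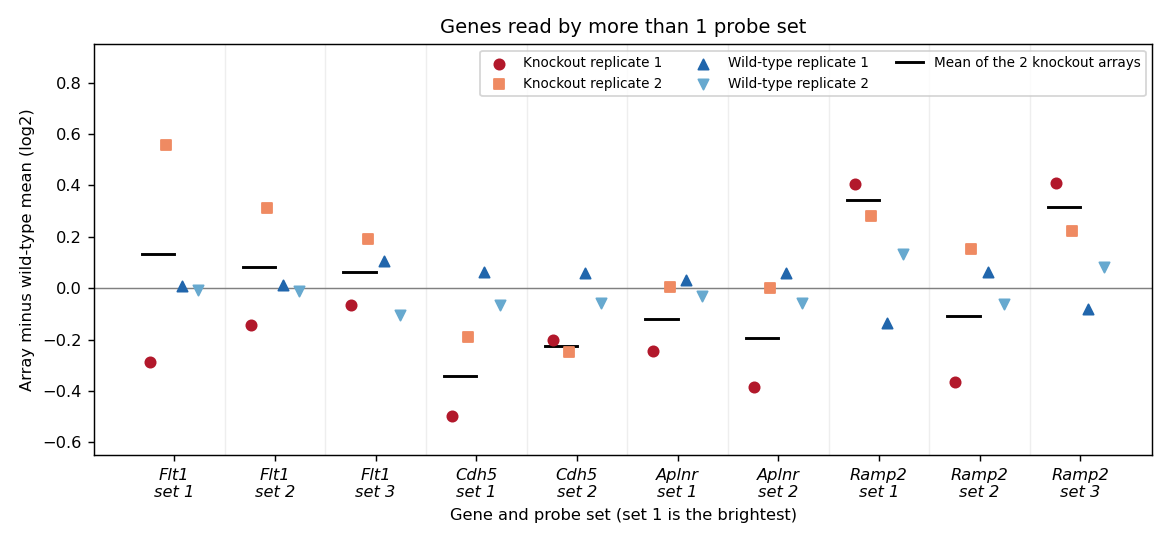
Each point is 1 array's log2 value minus the wild-type mean, for the 10 probe sets of the 4 genes with more than 1, ordered from the brightest within a gene, and short lines mark the mean of the 2 knockout arrays. The sets of Flt1, of Cdh5 and of Aplnr kept the sign of their mean difference, while those of Ramp2 gave 0.34, -0.11 and 0.32.

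Among the 16 probe sets, 11 had a lower mean in the knockout and 5 a higher one. Of the 14 sets bright enough to test, both knockout arrays were below both wild-type arrays in 4, where 30.4% of all probe sets tested were, and above both in 2, where 27.5% were. The dim Cdh5 set was a further one below, and the dim Flt1 set overlapped. Knockout replicate 1 was the lowest of the 4 arrays for 9 of the 10 genes in their brightest sets, against 19.1% of all genes tested. Knockout replicate 2 was above knockout replicate 1 for 9 of 10 genes, against 39.8%. These shares describe a list whose genes are expressed in the same cells, so the genes are not independent of each other.

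The ligands and partners of these receptors were read from lists of related genes. The largest difference was in Apln, the gene of the apelin peptide that activates Aplnr. It had 6.50 and 5.30 in the knockout arrays, against 8.53 and 8.52 in the wild-type arrays. Both knockout arrays were far below the wild-type pair, at -2.03 and -3.22 from its mean. The difference of -2.62 ± 0.44 (SE, n = 2 per group) was 6.17-fold, with a limma adjusted p of 0.12. Adm, the gene of adrenomedullin, had 7.13 and 6.51 in the knockout arrays, against 7.91 and 7.997 in the wild-type arrays. It was 2.19-fold lower (-1.13 ± 0.24, SE, n = 2 per group, limma adjusted p = 0.143), again with no overlap. Calcrl had 6.71 and 7.14 in the knockout arrays, against 7.41 and 7.03 in the wild-type arrays, with overlap. Ramp1, a relative of Ramp2 that directs Calcrl to another peptide, had 6.57 and 7.93 in the knockout arrays, against 6.08 and 5.995 in the wild-type arrays. In that list of 4 tested genes, 3 were lower and 1 higher in the mean, and 0 passed the adjusted threshold. At an unadjusted limma p under 0.05, 2 were lower and 0 higher, against 12.1% and 9.69% of all genes. Apln and Adm were lower in knockout replicate 2, where the median of skeletal muscle markers was 5.93, than in replicate 1, where that of epidermal markers was 3.15, and the part of those tissues was not tested.

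VEGF ligands and co-receptors showed smaller differences, with 5 of 7 tested genes lower, 2 higher, a median of -0.07 and 0 passed. At an unadjusted limma p under 0.05, 1 was lower and 0 higher, against 12.1% and 9.69% of all genes. That gene was Nrp2, a co-receptor for VEGF family members, with 8.79 and 8.59 in the knockout arrays, against 9.06 and 9.07 in the wild-type arrays (-0.38 ± 0.11, SE, n = 2 per group, limma adjusted p = 0.192). Its relative Nrp1 differed by -0.19 and the ligand genes Vegfb and Vegfc by -0.29 and 0.20. Vegfa, the main ligand of Kdr, was named for that role once its values were known. It had 9.78 and 10.23 in the knockout arrays, against 9.89 and 9.87 in the wild-type arrays. The knockout arrays of Vegfa thus lay on either side of the wild-type pair, as did those of Flt1.

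In the angiopoietin list all 3 tested genes had a lower mean, with a median of -0.18 and 0 passed, or 0 lower and 0 higher at an unadjusted limma p under 0.05. Angpt2, an angiopoietin made by endothelial cells themselves, had 6.83 and 6.85 in the knockout arrays, against 7.08 and 6.97 in the wild-type arrays, without overlap. Ptprb, the phosphatase that acts on Tek, differed by -0.26, with a value of 9.05 in knockout replicate 1 and 9.58 in replicate 2, against 9.61 and 9.54 in wild type. Its replicate 1 alone was low, as for Tie1. Angpt4 differed by -0.04. Of 4 tested Slit and Robo partners, 1 was lower and 3 higher, with a median of 0.15, 0 passed, and 0 lower and 0 higher at an unadjusted limma p under 0.05. Unc5b, a netrin receptor that binds Robo4, differed by -0.30 and the guidance ligand genes Slit2 and Slit1 by 0.33 and 0.04. Robo1, a relative of Robo4 known from axon guidance, differed by 0.26, with 6.29 and 5.35 in the knockout arrays, against 5.60 and 5.50 in the wild-type arrays.

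**Figure D3:**
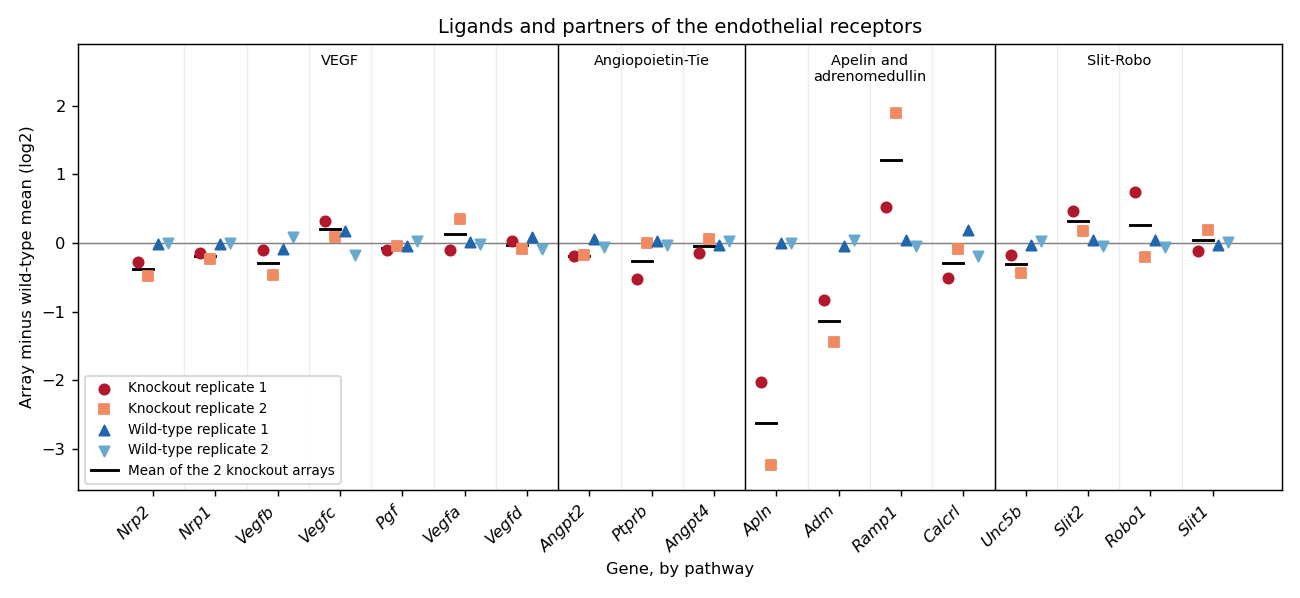
Points are single arrays minus the wild-type mean on the log2 scale for the tested ligands and partners, grouped by pathway, with knockout arrays left of wild-type arrays and short lines at the mean of the 2 knockout arrays. Apln lies at -2.03 and -3.22 in the knockout arrays, and the VEGF genes lie within 0.5 of the wild-type mean.

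Further genes of the endothelial surface and junctions were lower in the mean for 22 of 26 tested genes and higher for 4. Their median was -0.23, against -0.02 over all genes tested and -0.07 over genes at or above the 75th percentile of brightness. Both knockout arrays were below both wild-type arrays for 18 of 26 (69.2%), against 32.5% of all genes. They were above both for 2 (7.69%), against 26.3% of all genes. At an unadjusted limma p under 0.05, 7 were lower and 0 higher, against 12.1% and 9.69% of all genes, and 0 passed the adjusted threshold. Icam2, an adhesion molecule of resting endothelium, had 9.18 and 9.06 in the knockout arrays, against 9.85 and 9.90 in the wild-type arrays (-0.76 ± 0.10, SE, n = 2 per group, 1.69-fold lower, limma adjusted p = 0.105). Nos3, the endothelial nitric oxide synthase gene, had 8.07 and 8.18 in the knockout arrays, against 8.86 and 8.77 in the wild-type arrays (-0.69). Ecscr, an endothelial surface protein gene, had 8.28 and 8.27 in the knockout arrays, against 8.92 and 8.97 in the wild-type arrays (-0.68). Cd93, a lectin-like receptor gene of endothelium, had 10.53 and 10.54 in the knockout arrays, against 11.15 and 11.06 in the wild-type arrays (-0.57). These 4 genes were named for having the smallest limma p of the 26. That choice favours knockout arrays that lie close together and apart from wild type. The median gap between the knockout arrays was 0.25 over the 26 genes, and it was 0.50 for Plvap and 0.71 for Vwf, which overlapped. Set against the wild-type mean, the median difference of the 26 genes was -0.33 in knockout replicate 1 and -0.19 in replicate 2. Over all genes tested it was -0.004 and -0.06. Of the 26, 23 were below the wild-type mean in replicate 1 and 18 in replicate 2, against 5608 and 6185 of all 11078 genes. The median of this list was thus low in both knockout arrays, where that of the 10 members stood at -0.43 and 0.02.

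**Figure D4:**
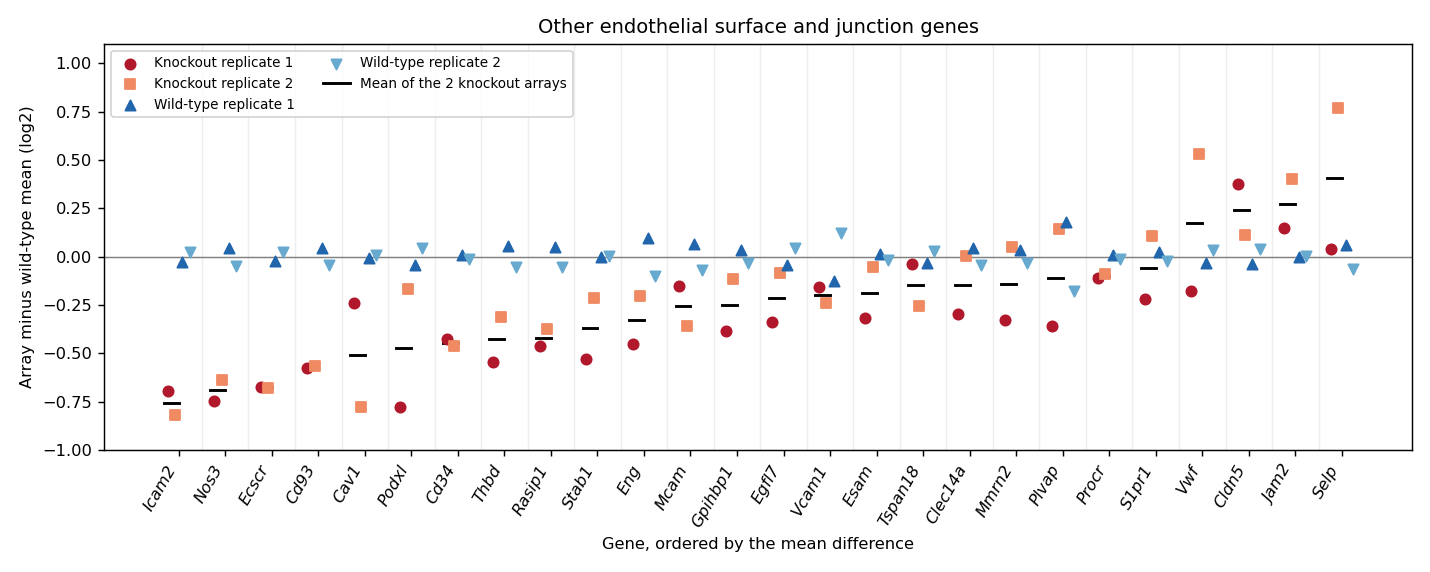
Each point is 1 array minus the wild-type mean on the log2 scale, for the 26 tested endothelial surface and junction genes ordered by mean difference, with short lines at the mean of the 2 knockout arrays. The mean is below 0 for 22 of 26 genes, and the 4 with a mean above 0 are Vwf, Cldn5, Jam2 and Selp.

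Endothelial transcription factors went both ways, with 12 of 20 tested genes lower and 8 higher, a median of -0.05 and 0 passed. At an unadjusted limma p under 0.05, 5 were lower and 3 higher, against 12.1% and 9.69% of all genes. Fli1, an ETS factor, had 8.55 and 8.70 in the knockout arrays, against 9.12 and 9.11 in the wild-type arrays (-0.49 ± 0.10, SE, n = 2 per group, limma adjusted p = 0.143). The ETS factor gene Ets2 and the homeobox gene Hhex differed by -0.32 and -0.33, both without overlap. Klf2, a factor induced in endothelium by blood flow, had 8.99 and 9.14 in the knockout arrays, against 8.64 and 8.62 in the wild-type arrays (0.43 ± 0.10, SE, n = 2 per group, limma adjusted p = 0.157). Klf2 was thus higher in both knockout arrays, while Nos3 was lower in both. Erg was named once its values were known, because it recognises the ETS core shown above. It had 8.48 and 8.82 in the knockout arrays, against 9.02 and 8.99 in the wild-type arrays.

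Markers of other cells moved between the same arrays, and their part in the endothelial values was not tested. Skeletal muscle markers, of which 13 of 14 were bright enough to test, had a summed level of 9.66 and 15.77 (log2) in the knockout arrays, against 10.31 and 12.07 in the wild-type arrays. Epidermis and hair follicle markers, of which 10 of 14 were, summed to 13.65 and 8.42 in the knockout arrays, against 9.77 and 11.72 in the wild-type arrays. Knockout replicate 1, the array in which 9 of 10 endothelial genes were lowest, was thus high in epidermal markers, and knockout replicate 2 was high in muscle markers. Wild-type replicate 2 had the higher sum of the wild-type arrays for both epidermal and muscle markers. It was below wild-type replicate 1 for 8 of the 10 endothelial genes, against 5569 of all 11078 genes tested. The median difference of wild-type replicate 2 from wild-type replicate 1 was -0.05 over the 10. The median absolute gap between the wild-type arrays was 0.08 over all genes tested, and the part of either tissue was not tested. For 4 of 4 tested erythroid markers both knockout arrays were below both wild-type arrays, against 32.5% of all genes. Their medians in the knockout arrays were -1.61 and -1.16. Their sums were 13.19 and 13.37 in the knockout arrays, against 13.68 and 13.67 in the wild-type arrays. Macrophage markers were lower in the mean for 8 of 9, where 53.4% of all genes were. Their sums were 11.95 and 12.14 in the knockout arrays, against 12.23 and 12.53 in the wild-type arrays. Luminal and basal epithelial markers were higher in the mean for 10 of 10, where 5152 of all 11078 genes tested were. Their sums were 11.66 and 10.99 in the knockout arrays, against 10.69 and 9.86 in the wild-type arrays. Fibroblast, white adipocyte and platelet markers had medians of -0.07, -0.20 and -0.11. Of their tested genes, 5 of 8, 5 of 6 and 2 of 3 were lower in the mean, against 53.4% of all genes. The adipocyte median does not show Lep, with 6.95 and 4.48 in the knockout arrays, against 10.72 and 10.72 in the wild-type arrays. The 1 adipocyte marker with a higher mean, Adipoq, differed by 0.04.

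**Figure D5:**
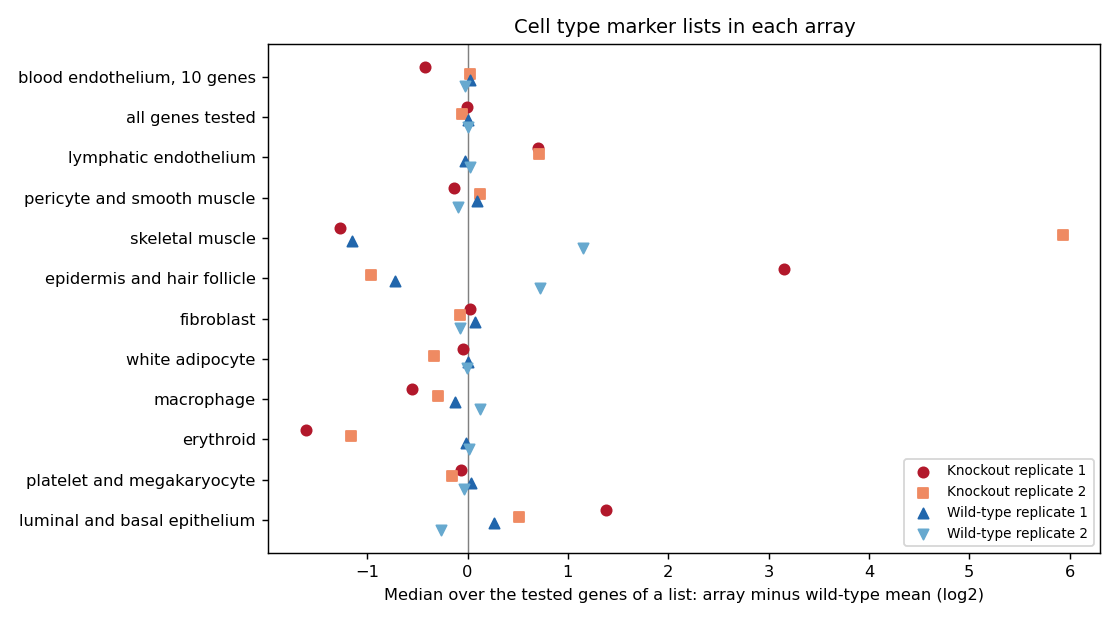
Each point is the median over the tested genes of a list, as 1 array minus the wild-type mean (log2). The 10 blood endothelial genes stand at -0.43 in knockout replicate 1 and 0.02 in knockout replicate 2, beside -1.27 and 5.93 for skeletal muscle and 3.15 and -0.97 for epidermis with hair follicle.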

How the data were processed

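The authors hybridised biotin-labelled RNA, amplified from the 3-prime end, to Affymetrix mouse arrays, per the labels' protocols. Per the submitters' processing notes, the deposited log2 values come from RMA and the R package affy. RMA equalises the arrays' distributions, which hides any shift shared by most genes. The log2 scale was read from the values, with array medians of 4.92 to 4.98. The number of arrays limits the precision. P-values measure the spread between the labelled biological replicates.

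Probe sets were named through the array design's annotation, and 28689 of 28898 single-gene probe sets matched the RefSeq table by gene identifier. The probe set with the highest mean stood for a gene. The median over all 45141 probe sets, 4.94, was the lowest mean a gene could have to enter the test, which left 11078 genes, the 10 endothelial genes among them. Knockout was compared with wild type by limma 3.58.1 in R 4.3.3 (lmFit, eBayes), with Benjamini-Hochberg adjustment over all genes tested. Errors are limma's moderated standard errors. The test was checked on simulated data. All members were named, and up to 4 genes of smallest p from each pathway list. The members and lists were chosen with earlier results of these data known. Summed levels are log2 of summed linear values over all of a list's genes on the array. Alternatives changed the brightness filter, the probe set, the scaling, the variance model, the replicate number as a block and the arrays included.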

Additional observations from a re-analysis of the deposited data

How the results depend on the processing

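With all 4 arrays, limma called 0 genes under each brightness filter, probe set choice, scaling and variance model tried. Left out 1 at a time, arrays gave between 0 and 4180 genes called and between 0 and 8387 probe sets called, the highest counts without knockout replicate 1 and 0 without either wild-type array. Probe sets called, 1 otherwise, numbered 0 with the 75th percentile filter, 0 with an intensity trend, 0 with the replicate block and 4 with array weights. The replicate block left 0 genes called and changed no member's call. Replicate numbers do not show a pairing (r = -0.09 between the genotypes' replicate differences, over genes). The members' median ranged from -0.21 to -0.14 over the settings that kept all arrays and from -0.43 to 0.02 with 1 array left out. The count of members below every wild-type array, 4 with all arrays, ranged from 4 to 9 when 1 was left out, a choice made after seeing the data, and it was 4 without knockout replicate 1, 9 without knockout replicate 2 and 6 without wild-type replicate 2. Of all genes tested, 50.8%, 43.7% and 38.5% did so in the same settings. With 1 array left out, differences ranged from -0.29 to 0.56 for Flt1, -0.27 to 0.069 for Tek, -0.51 to 0.043 for Tie1, -0.38 to 0.12 for Pecam1 and -0.25 to 0.0058 for Aplnr. The sign turned without knockout replicate 1 for the last 4 and without knockout replicate 2 for Flt1. Without probe sets that can match several transcripts, Ramp2 turned to -0.11. The cause was not tested. Kdr, Robo4, Emcn and Cdh5 were lower in all 15 alternatives. Low values lie near the array's background, where RMA compresses differences, which limits the dim probe sets of Flt1 and Cdh5 most.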

Other observations

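Genes of the cells around and beside blood capillaries were also read. Among pericyte and smooth muscle markers, 3 of 7 tested genes had a lower mean and 4 a higher one. The median was 0.06, and limma passed 0. At an unadjusted limma p under 0.05, 2 were lower and 0 higher, against 12.1% and 9.69% of all genes. The 2 lower genes encode proteins found in pericytes, the cells that wrap capillaries. Kcnj8, a potassium channel gene, had 8.57 and 8.72 in the knockout arrays, against 9.27 and 9.08 in the wild-type arrays (-0.53 ± 0.12, SE, n = 2 per group, limma adjusted p = 0.153). Rgs5, a regulator of G protein signalling, had 11.54 and 11.34 in the knockout arrays, against 11.90 and 11.87 in the wild-type arrays (-0.45 ± 0.11, SE, n = 2 per group, limma adjusted p = 0.167). The groups overlapped for the other 5 tested genes, among them Pdgfrb, which differed by 0.08, and Notch3, by -0.17. The smooth muscle myosin gene Myh11 had 8.84 and 9.51 in the knockout arrays, against 8.96 and 8.79 in the wild-type arrays, with overlap.

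The tested lymphatic endothelial markers, 3 of the 6 on the array, stood on the other side, with a median of 0.74. In all 3, both knockout arrays were above both wild-type arrays, as in 26.3% of all genes tested. All 3 were higher at an unadjusted limma p under 0.05, against 9.69% of all genes, and 0 passed the adjusted threshold. Reln had 6.30 and 6.24 in the knockout arrays, against 5.51 and 5.55 in the wild-type arrays, Lyve1 differed by 0.41 and Pdpn by 1.12. The lymphatic regulator genes Prox1 and Flt4 lay below the brightness limit in the mean, at 4.03 and 4.56. They differed by 0.04 and -0.003, both with overlap. Mmrn1, also below the limit, differed by 0.29 with overlap.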
